A study of Mus musculus with 12 samples.

Results

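Transcripts of 9 genes linked to ATF4, the transcription factor at the centre of the amino acid stress response, were followed in mouse dendritic cells. The genes were a fixed list of symbols (Atf4, Ddit3, Trib3, Asns, Psat1, Shmt2, Mthfd2, Sesn2 and Ddit4), chosen with earlier results of these data known. All 9 had a row among the 11786 genes of the table. The cells had been derived from bone marrow in GM-CSF, a myeloid growth factor. They came from wild-type mice or from mice labelled ythdf1-/-, which are meant to lack Ythdf1, a reader protein of the mRNA mark N6-methyladenosine. Both genotypes were cultured alone or with tumour lysate, described in the labels as necrotic cells of the mouse melanoma line B16-OVA added overnight, after which the dendritic cells were purified again. These 4 groups held 2 RNA-seq libraries each, and the 4 RNA immunoprecipitation samples of the series were not analysed here. Mouse age, strain and sex are unstated in the labels. Nothing there says that both libraries of a group stem from different mice or cultures, so each p-value reflects library-to-library spread alone, which may be technical.

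When amino acids run short, or the endoplasmic reticulum, haem supply or viral RNA sensors signal stress, kinases phosphorylate the initiation factor eIF2 alpha. General protein synthesis then slows, while the Atf4 mRNA, which carries short upstream reading frames, is translated more. ATF4 pairs with C/EBP-family proteins on composite DNA elements and raises genes for amino acid uptake and synthesis, for one-carbon metabolism and for restraint of the growth kinase mTORC1. ATF4 is controlled to a large part by translation, so the level of its mRNA is not a measure of the protein.

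The text of 4 short promoter stretches is shown because they hold the letters of such composite elements, and 2 longer ones because Sesn2 and Mthfd2 moved together in the results that follow. All come from RefSeq windows on GRCm38.p6 that reach from 250 bases before to 50 bases after a gene's start. All 9 genes had a window there. The expression table was made on another build, mm9 per the submitters' processing notes, and no coordinate of that build is used. Capitals mark the match in the short stretches and the letters CCAAT or their reverse complement ATTGG in the long ones. All are written 5′ to 3′ on the strand of the gene, which is the minus strand in each case.
Asns, chr6:7693214-7693243: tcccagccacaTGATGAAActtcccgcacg
Trib3, chr2:152344028-152344057: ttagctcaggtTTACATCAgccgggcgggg
Trib3, chr2:152344075-152344104: cgggtcacagaTGGTGCAAtcccgggccgc
Psat1, chr19:15925177-15925206: acgcgggtggcTGGTGCAAtcccctgctct
Sesn2, chr4:132510457-132510706: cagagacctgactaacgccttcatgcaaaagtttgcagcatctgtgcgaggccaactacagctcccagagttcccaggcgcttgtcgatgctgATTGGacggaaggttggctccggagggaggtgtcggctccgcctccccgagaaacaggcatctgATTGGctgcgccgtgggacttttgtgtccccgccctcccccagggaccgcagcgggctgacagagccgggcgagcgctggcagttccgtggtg
Mthfd2, chr6:83317605-83317854: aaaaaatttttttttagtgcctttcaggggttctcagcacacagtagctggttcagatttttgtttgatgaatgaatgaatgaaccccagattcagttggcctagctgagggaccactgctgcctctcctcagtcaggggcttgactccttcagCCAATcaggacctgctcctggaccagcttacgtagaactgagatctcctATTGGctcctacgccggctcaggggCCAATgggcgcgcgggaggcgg

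The composite letters TGATGNAA, searched on both strands, occurred in the windows of 2 of the 9 genes. Positions give the first base of a match, with 1 as the start and -1 as the base before it. In Asns the match was at -23, and in Trib3 it lay on the opposite strand at 15. Of all 32851 windows 3.97% held these letters. The variant TGNTGCAA, chosen after the sequences were seen, occurred in Trib3 at -33, in Psat1 at -136 and, on the opposite strand as TTGCAGCA in lower case above, in Sesn2 at -218, against 3.22% of all windows. Where the N of one pattern is C and the N of the other is A, both describe the same letters, and no match here was shared. CCAAT, likewise chosen after the sequences were seen, occurred in 6 of the 9 genes and in 37.4% of all windows, with 2 matches in Sesn2 and 3 in Mthfd2. Repeated matches were not particular to these genes. They also occurred in Psat1 (-36, -6 and 24), Atf4 (-117 and -76) and, as ATTGG, Ddit4 (-170 and -137), and Ddit3 had a match at -77. A match is a description of letters and does not show binding.

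Values are log2 levels on the authors' regularized scale, which is not corrected for gene length, so levels are compared between libraries and not between genes. Library medians lay between 8.53 and 8.55. The Ythdf1 transcript lay between 9.43 and 9.72 in the 8 libraries and did not pass the test between genotypes: the ythdf1-/- minus wild-type log2 difference, with its standard error, was -0.030 ± 0.081 in untreated cells (adjusted p = 0.85) and -0.16 ± 0.081 in lysate-treated cells (adjusted p = 0.202). The labels do not say which part of the gene was altered, so this whole-gene value does not check the labels, and the groups are called KO-labelled. Of 8 dendritic cell markers 7 were measured, among them Itgax (10.97 to 11.52 over the 8 libraries) and Flt3 (10.32 to 10.87). None of 4 B cell and 6 T and NK cell markers was among the genes analysed here. Neutrophil and macrophage markers were present at levels given beside the genotype results, so the cultures held other myeloid transcripts too. In bulk RNA, fewer cells of a type and less RNA per cell cannot be told apart.

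Of the 9 genes, Sesn2 and Mthfd2 passed the test both with lysate in wild type and between genotypes in either treatment. Psat1 rose with lysate in wild type (0.35) and had a value of 0.27 that did not pass in KO-labelled cells. Ddit4 was higher in KO-labelled cells without lysate, and 5 genes passed the test in no comparison. The share of all genes that passed in none was not counted, so this 5 of 9 is description only. Atf4 itself was among these 5, although its groups did not overlap in any of the 4 pairwise comparisons. How many of all genes have groups that do not overlap was not counted, so a lack of overlap is given as description only. The changes were small, between -0.38 and 0.50 on the log2 scale for the lowest and highest values of any of the 9 genes in the 4 pairwise comparisons. The test was limma across all 11785 genes that passed a filter on low values, with Benjamini-Hochberg adjustment and a threshold of 0.05, and all 9 genes passed that filter.

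**Figure D1:**
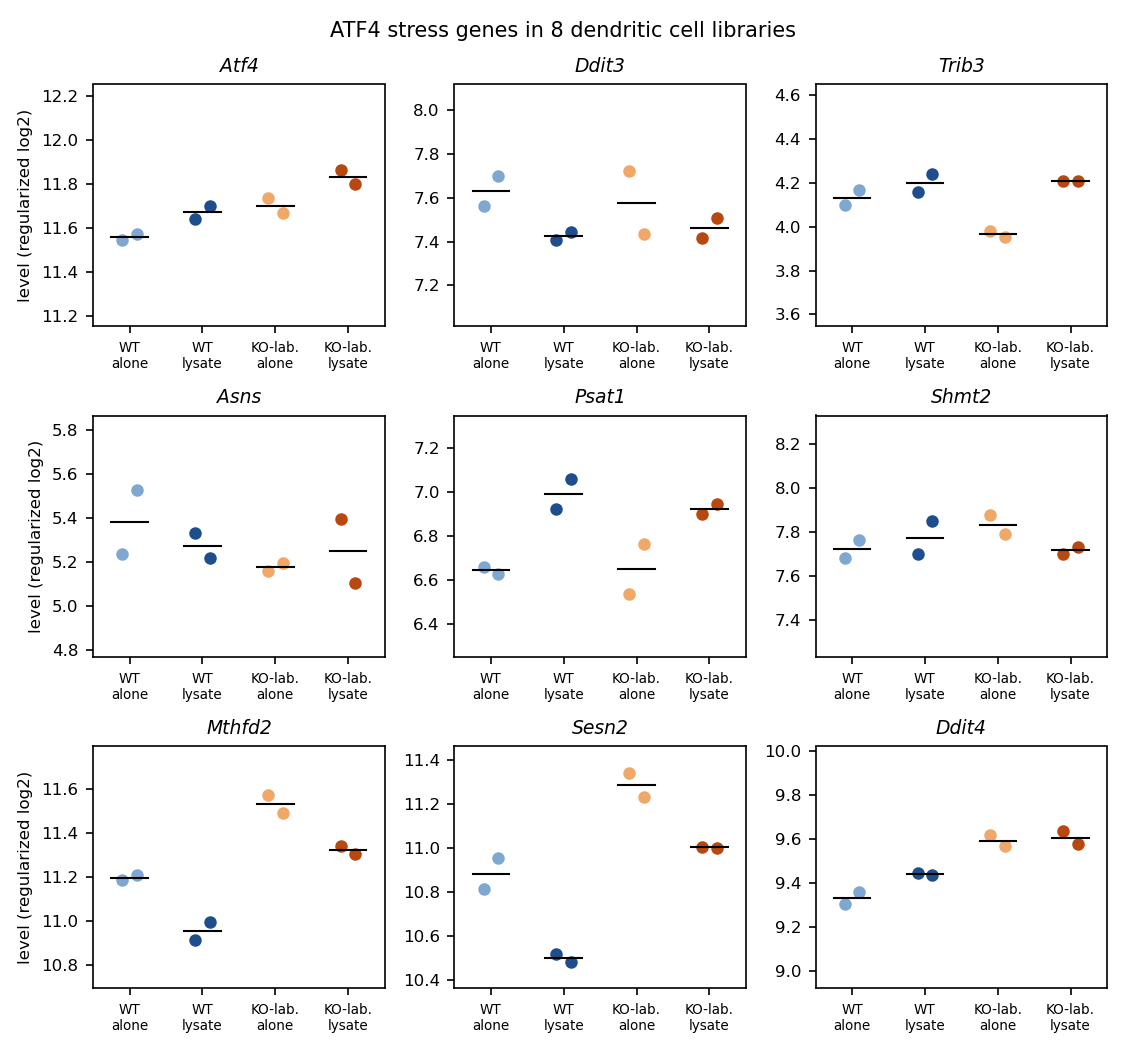
Regularized log2 level (vertical axis, spanning 1.1 units in every panel) of each of the 9 genes in the 4 groups (horizontal axis, WT for wild type and KO-lab. for KO-labelled); points are the 2 libraries of a group and the line is their mean. The 4 groups of Mthfd2 and of Sesn2 do not overlap, with wild type plus lysate at the bottom and KO-labelled alone at the top, and the points of Asns and Ddit3 spread as much within groups as between them. The share of all genes whose 4 groups lie apart was not counted.

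Atf4 (Entrez 11911) rose or fell in no comparison by the test. Its level was 11.54 and 11.57 in wild type alone, 11.64 and 11.70 in wild type with lysate, 11.74 and 11.67 in KO-labelled alone, and 11.86 and 11.80 in KO-labelled with lysate. The KO-labelled libraries with lysate were the highest and the wild-type libraries alone the lowest, and neither overlapped another group. The KO-labelled minus wild-type difference was 0.14 ± 0.065 without lysate (95% interval 0.0028 to 0.28, adjusted p = 0.166) and 0.16 ± 0.065 with lysate (0.020 to 0.30, adjusted p = 0.12). The lysate difference was 0.11 ± 0.065 in wild type (-0.028 to 0.25, adjusted p = 0.236) and 0.13 ± 0.065 in KO-labelled cells (-0.011 to 0.27, adjusted p = 0.2). Each of these differences was positive, and none held up after adjustment for all genes.

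Ddit3 (Entrez 13198), which encodes CHOP, a C/EBP-family factor that ATF4 induces and that is linked to cell death under lasting stress, passed in no comparison either. It stood at 7.56 and 7.70 in wild type alone, 7.41 and 7.44 in wild type with lysate, 7.72 and 7.43 in KO-labelled alone, and 7.42 and 7.51 in KO-labelled with lysate. The 2 untreated KO-labelled libraries differed by nearly the whole range of the 8. With lysate the wild-type libraries lay below those without, at -0.20 ± 0.10 (95% interval -0.42 to 0.020, adjusted p = 0.179).

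Trib3 (Entrez 228775) encodes a pseudokinase that ATF4 and CHOP induce and that feeds back on ATF4. Its level was 4.10 and 4.16 in wild type alone, 4.16 and 4.24 in wild type with lysate, 3.98 and 3.95 in KO-labelled alone, and 4.21 and 4.21 in KO-labelled with lysate. The untreated KO-labelled libraries were the lowest and overlapped no other group. The lysate difference in KO-labelled cells was 0.24 ± 0.079 (adjusted p = 0.0559), beside 0.069 ± 0.079 in wild type (adjusted p = 0.572). All 8 values lie close to the lowest value of the table, 3.24, where the regularized scale shrinks changes and so understates them.

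Asns (Entrez 27053), asparagine synthetase, a classical ATF4 target with the composite letters shown above, did not pass in any comparison. It was at 5.24 and 5.53 in wild type alone, 5.33 and 5.22 in wild type with lysate, 5.16 and 5.20 in KO-labelled alone, and 5.39 and 5.11 in KO-labelled with lysate. The 2 libraries of wild type alone and of KO-labelled with lysate each differed by more than any group means did. The 95% interval of the lysate difference ran from -0.36 to 0.14 in wild type and from -0.18 to 0.32 in KO-labelled cells. A fall or a rise within these bounds is thus not excluded. Asns too is low on the scale.

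Psat1 (Entrez 107272), phosphoserine aminotransferase of the serine synthesis route, rose with lysate in wild type. It was at 6.66 and 6.63 in wild type alone and at 6.92 and 7.06 with lysate, a 1.27-fold rise (0.35 ± 0.098, adjusted p = 0.0235). In KO-labelled cells it was at 6.54 and 6.76 alone and at 6.90 and 6.94 with lysate (0.27 ± 0.098, adjusted p = 0.0779). In both genotypes every library with lysate lay above every library without. The wild-type call was lost without either untreated wild-type library (adjusted p = 0.0584 without replicate 1, 0.125 without replicate 2) and without either wild-type lysate library (0.0507 and 0.135), and KO-labelled cells passed without KO-labelled alone replicate 2 (0.0206). Between genotypes Psat1 differed by 0.0057 ± 0.098 without lysate and -0.068 ± 0.098 with lysate, neither past the threshold (adjusted p = 0.981 and 0.688).

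Shmt2 (Entrez 108037) encodes the mitochondrial serine hydroxymethyltransferase, which passes a carbon of serine to folate. It was at 7.68 and 7.76 in wild type alone, 7.70 and 7.85 with lysate, 7.88 and 7.79 in KO-labelled alone, and 7.70 and 7.73 with lysate. It had the narrowest range of the 9 genes, 0.19 over the 8 libraries, and its changes lay between -0.12 and 0.11 with adjusted p from 0.397 to 0.718.

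Mthfd2 (Entrez 17768), the mitochondrial enzyme that acts on the folate product of SHMT2, was higher in KO-labelled cells under both treatments and lower with lysate. Its level was 11.19 and 11.21 in wild type alone and 10.91 and 11.00 in wild type with lysate. In KO-labelled libraries it was 11.58 and 11.49 alone and 11.34 and 11.31 with lysate. The 4 groups did not overlap: wild type with lysate was the lowest, then wild type alone, KO-labelled with lysate and KO-labelled alone. The difference between genotypes was 0.34 ± 0.067 without lysate (1.26-fold, adjusted p = 0.00386) and 0.37 ± 0.067 with lysate (1.29-fold, adjusted p = 0.00365). With lysate Mthfd2 fell by 0.24 ± 0.067 on the log2 scale in wild type (adjusted p = 0.0208), and the value in KO-labelled cells was -0.21 ± 0.067 with an adjusted p of 0.05001, just outside the threshold. The wild-type call was lost without wild-type alone replicate 1 (adjusted p = 0.052) or 2 (0.116) and without wild-type lysate replicate 1 (0.134). The genotype call with lysate was lost without KO-labelled lysate replicate 1 (0.0868), and the one without lysate held in each case (0.00348 to 0.0271). In KO-labelled cells the lysate change passed without either wild-type lysate library (0.0492 and 0.0495) or without KO-labelled alone replicate 2 (0.0449).

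Sesn2 (Entrez 230784) encodes sestrin 2, a leucine sensor that restrains mTORC1 and that ATF4, p53 and NRF2 can induce. It ran through the groups in the same order as Mthfd2. Its level was 10.81 and 10.96 in wild type alone and 10.52 and 10.48 in wild type with lysate, against 11.34 and 11.23 in KO-labelled alone and 11.01 and 11.00 in KO-labelled with lysate. The groups did not overlap, although the upper wild-type library alone (10.96) came near the KO-labelled libraries with lysate. KO-labelled cells were higher by 0.40 ± 0.072 without lysate (1.32-fold, adjusted p = 0.00198) and by 0.50 ± 0.072 with lysate (1.42-fold, adjusted p = 0.000938). With lysate Sesn2 fell by 0.38 ± 0.072 on the log2 scale in wild type (adjusted p = 0.00249) and by 0.28 ± 0.072 in KO-labelled cells (adjusted p = 0.0179). The genotype calls and the wild-type lysate call held without any 1 of the 8 libraries, with adjusted p up to 0.0247, 0.0346 and 0.0362. The KO-labelled lysate call was lost without KO-labelled alone replicate 1 (0.122) and without KO-labelled lysate replicate 1 (0.13) or 2 (0.125).

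Ddit4 (Entrez 74747) encodes REDD1, another brake on mTORC1, which is raised by ATF4, hypoxia and glucocorticoids. It was at 9.31 and 9.36 in wild type alone, 9.45 and 9.44 in wild type with lysate, 9.62 and 9.57 in KO-labelled alone, and 9.63 and 9.57 in KO-labelled with lysate. Every KO-labelled library lay above every wild-type library. The genotype difference was 0.26 ± 0.071 without lysate (1.2-fold, adjusted p = 0.0236) and 0.16 ± 0.071 with lysate (95% interval 0.011 to 0.32, adjusted p = 0.144). The call without lysate was lost without wild-type alone replicate 1 (adjusted p = 0.128) or 2 (0.0619), without KO-labelled alone replicate 1 (0.11), and in a fit of these 2 groups alone (0.0739). With lysate it differed by 0.11 ± 0.071 in wild type and 0.012 ± 0.071 in KO-labelled cells, neither past the threshold (adjusted p = 0.296 and 0.923).

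**Figure D2:**
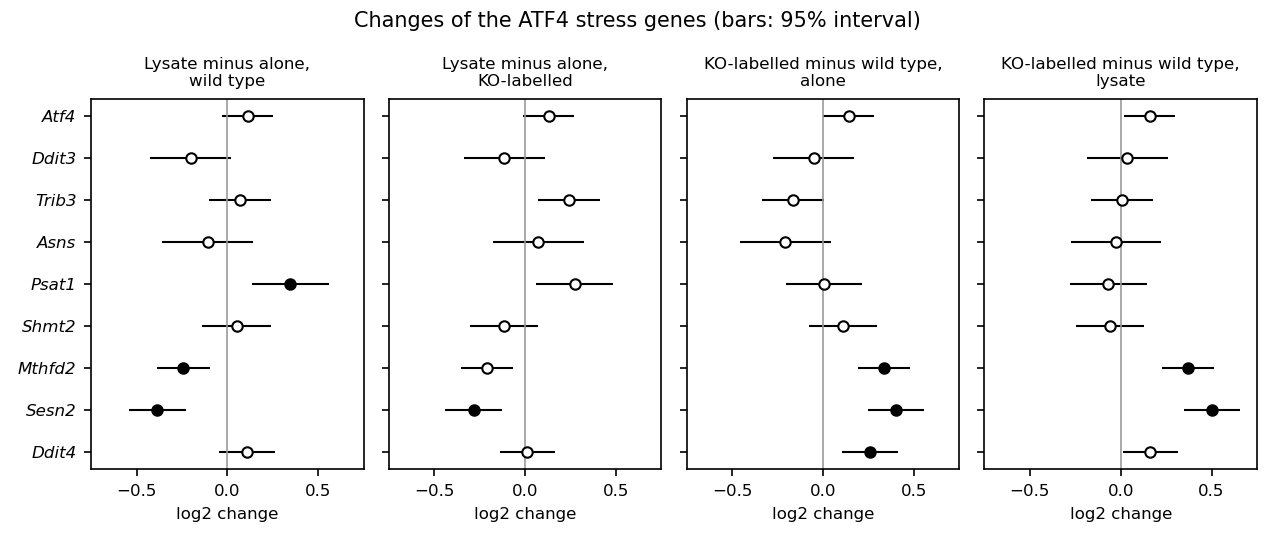
Log2 change (horizontal axis) of each gene (rows) in the 4 pairwise comparisons (panels), with 95% intervals of the limma fit; filled points passed the threshold after adjustment over all genes. Filled points lie left of 0 for Mthfd2 and Sesn2 with lysate in wild type (-0.24 and -0.38) and right of 0 for both genes between genotypes in either treatment (0.34 to 0.50).

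By comparison, 3 of the 9 genes passed with lysate in wild type, 1 higher and 2 lower, where 21.5% of all genes passed (10.2% higher and 11.3% lower). In KO-labelled cells 1 of the 9 passed with lysate, lower, against 8.28% of all genes higher, 6.92% lower and 15.2% in either direction. Between genotypes 3 of the 9 passed without lysate, all higher in KO-labelled cells, against 7.02% of all genes higher, 9.23% lower and 16.2% in either direction. With lysate 2 of the 9 passed, both higher, against 7.44% of all genes higher, 5.45% lower and 12.9% in either direction. These are few genes, the shares are read beside those of all genes and no more is drawn from them. The median change of the 9 genes was 0.051 and 0.012 with lysate in wild type and KO-labelled cells, and 0.11 and 0.036 between genotypes without and with lysate, beside medians over all genes of -0.010, -0.0013, 0.0022 and -0.0085. The comparisons share groups. Wild type with lysate, for example, is set against its baseline in the wild-type lysate comparison and is itself the baseline of the treated genotype comparison. The opposite directions of Sesn2 and Mthfd2 in them are therefore not separate evidence.

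None of the 9 genes passed for a difference between genotypes in its lysate effect by limma. After adjustment it was 0 of 9, where 0.11% of all genes passed. At an unadjusted p under 0.05 it was also 0 of 9, beside 980 of all 11785 genes, a share at which 0 of 9 says little. The differences of the lysate effects, KO-labelled minus wild type, ran from -0.17 for Shmt2 to 0.18 for Asns. For Sesn2 the difference was 0.10 ± 0.10 (95% interval -0.12 to 0.32), for Mthfd2 0.033 ± 0.094 (-0.17 to 0.24), for Psat1 -0.074 ± 0.14 (-0.37 to 0.22) and for Atf4 0.017 ± 0.092 (-0.18 to 0.22). These intervals leave room for differences as large as many of the lysate effects themselves.

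Markers of pigment cells moved with lysate. All 5 measured markers of 8 for melanocytes and B16 cells rose in both genotypes, and the log2 of their summed level was 10.00 to 10.12 in wild type alone and 10.45 to 10.56 with lysate, and 9.80 to 9.96 and 10.39 to 10.45 in KO-labelled cells. This sum is mostly Mitf, which was at 9.97 and 9.84 in wild type without any lysate, so it is not a level of pigment cell transcripts. Of the more restricted markers (Dct, Tyrp1, Pmel and Slc45a2) Dct was at 4.75 and 4.75 in wild type alone and at 5.80 and 5.95 with lysate, and in KO-labelled cells at 4.87 and 4.84 alone and at 6.20 and 6.13 with lysate. Tyr, Mlana and Sox10 were not among the genes analysed here. Of the 7 dendritic cell markers 4 were lower and 0 higher with lysate in each genotype. These were Ciita, Cd74 and H2-Ab1, all of MHC class II antigen presentation, and the transcription factor Zbtb46. Itgax (0.055 in wild type and 0.22 in KO-labelled cells) and Flt3 (0.14 and 0.024) had positive values that did not pass. The log2 of the summed level of all 7 was 17.08 to 17.21 in wild type alone and 16.74 to 16.76 with lysate, and 17.14 to 17.24 and 16.77 to 16.78 in KO-labelled cells, with Cd74 as its largest term (16.40 and 16.54, then 16.06 and 16.02, in wild type). The part of either marker list in the lysate values of Psat1, Mthfd2 and Sesn2 was not tested.

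Neutrophil transcripts moved with the genotype label. Of 8 markers 7 were lower in KO-labelled cells without lysate and 8 with lysate, and 0 were higher. The log2 of their summed level was 13.98 to 14.05 in wild type alone and 13.66 to 13.97 with lysate, against 12.41 to 12.49 and 12.29 to 12.42 in KO-labelled cells. Ngp, a neutrophil granule gene, stood at 11.50 and 11.57 in wild type alone and at 10.06 and 9.92 in KO-labelled alone. Of 6 macrophage and monocyte markers 4 were lower without lysate and 2 with lysate, with log2 sums of 14.89 to 14.95 in wild type alone, 14.83 to 14.85 with lysate, and 14.50 to 14.56 and 14.63 to 14.65 in KO-labelled cells. Of the dendritic cell markers Flt3 and Zbtb46 were higher and Itgax lower without lysate, and Ciita, Zbtb46, Flt3 and Ccr7 were higher with lysate, as were Dct and Tyrp1 of the pigment cell markers. With lysate, 2 neutrophil markers were lower in each genotype, while 2 macrophage markers rose in each and 2 fell in wild type. The part of these markers in the higher Sesn2, Mthfd2 and Ddit4 of KO-labelled cells was not tested.

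Beyond the 9 genes, 70 other genes of the eIF2 and ATF4 response were listed and 59 were measured. With lysate 17 of the 59 passed in wild type, 7 higher and 10 lower (median -0.0024), and 9 in KO-labelled cells, 4 higher and 5 lower (median 0.0088). Between genotypes 9 passed without lysate, 3 higher and 6 lower (median -0.014), and 5 with lysate, 3 higher and 2 lower (median -0.029). These counts correspond to 28.8%, 15.3%, 15.3% and 8.47% of the list, beside the shares of all genes given above, and fell to 5, 2, 3 and 1 or reached 19, 10, 8 and 9 when 1 library was left out. Calls fell on both sides of 0 in each of the 4 comparisons.

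Of 10 amino acid transporters measured, 3 passed as lower with lysate in each genotype, and none passed as higher. Of all genes 11.3% passed as lower and 10.2% as higher in wild type, and 6.92% and 8.28% in KO-labelled cells. The median change of the 10 was -0.085 in wild type and 0.040 in KO-labelled cells, so in the latter the group did not lean lower. Slc1a5, the glutamine transporter ASCT2, was lower with lysate and higher in KO-labelled cells, but its KO-labelled libraries with lysate lay below wild type alone, unlike those of Sesn2 and Mthfd2. It was at 10.04 and 10.06 in wild type alone, 9.46 and 9.68 with lysate, 10.53 and 10.39 in KO-labelled alone, and 10.00 and 9.92 with lysate. It fell by 0.48 ± 0.085 and 0.50 ± 0.085 on the log2 scale with lysate in wild type and KO-labelled cells (adjusted p = 0.00185 and 0.00189). It was higher in KO-labelled cells by 0.41 ± 0.085 when untreated and 0.39 ± 0.085 when treated (adjusted p = 0.0048 and 0.0101), the last of which was lost without wild-type lysate replicate 1 or either KO-labelled lysate library (adjusted p up to 0.154). Slc1a4, a carrier of serine and alanine, was lower in both genotypes (-0.35 and -0.32), Slc38a2 in wild type (-0.24) and Slc7a6 in KO-labelled cells (-0.34). Slc1a4 lost its wild-type call without either untreated library or wild-type lysate replicate 1 and its KO-labelled call without any 1 of the 4 KO-labelled libraries. Slc38a2 lost its call without any 1 of 6 libraries and Slc7a6 without any 1 of 3 (adjusted p up to 0.173, 0.23, 0.195 and 0.189 for these 4 calls). Slc7a11, the cystine carrier, did not pass (0.25 ± 0.090 and 0.19 ± 0.090, adjusted p = 0.0604 and 0.186).

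Among enzymes of serine, one-carbon and proline metabolism, 9 of 15 were measured. Shmt1, the cytosolic counterpart of Shmt2, was higher in KO-labelled cells under both treatments and kept that call without any 1 library. It was at 6.17 and 6.01 in wild type alone and 6.16 and 6.19 with lysate, against 6.77 and 6.47 in KO-labelled alone and 6.78 and 6.84 with lysate (0.53 ± 0.11, adjusted p = 0.00414, and 0.63 ± 0.11, adjusted p = 0.00222). Got1, the cytosolic aspartate aminotransferase, fell with lysate by 0.41 ± 0.067 on the log2 scale in wild type (adjusted p = 0.000985) and by 0.28 ± 0.067 in KO-labelled cells (adjusted p = 0.014), the latter lost without KO-labelled alone replicate 1 or either KO-labelled lysate library (adjusted p up to 0.126). Mthfd1 and Mthfd2l, the cytosolic and the other mitochondrial relative of Mthfd2, rose in wild type (0.39 and 0.43), where Mthfd2 itself fell. Mthfd1 lost that call without replicate 1 of either wild-type group, and Mthfd2l without wild-type alone replicate 2 or either wild-type lysate library (adjusted p up to 0.169 and 0.224). Psph, which completes the serine route after PSAT1, did not pass in any comparison.

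The upstream arm was mixed. Eif2s1, the eIF2 alpha subunit that the stress kinases phosphorylate, rose with lysate in wild type (0.46 ± 0.080, adjusted p = 0.00168), a call kept without any 1 library. Eif2ak2, the interferon-induced kinase PKR, rose by 0.35 ± 0.082 in wild type and 0.54 ± 0.082 in KO-labelled cells (adjusted p = 0.00909 and 0.000839), the wild-type call being lost without untreated wild-type replicate 2 or treated wild-type replicate 1 (adjusted p up to 0.119). The kinases Eif2ak1 (HRI) and Eif2ak3 (PERK) were lower with lysate in wild type (-0.25 and -0.22). Ppp1r15a, the stress-induced eIF2 alpha phosphatase subunit GADD34, was higher in KO-labelled cells (0.22 without and 0.30 with lysate). Eif2ak1 and Eif2ak2 were lower there without lysate (-0.29 and -0.26), and Ppp1r15b rose with lysate in KO-labelled cells (0.21). The calls of this paragraph other than those of Eif2s1 in wild type and Eif2ak2 with lysate were each lost without any 1 of at least 4 libraries (adjusted p up to 0.366).

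Of 10 transcription factors that partner or parallel ATF4, Atf5 fell with lysate in both genotypes (-0.30 and -0.36) and Xbp1, the factor of the IRE1 arm of the unfolded protein response, rose in both (0.20 and 0.26). Xbp1 was lower in KO-labelled cells in both treatments (-0.27 and -0.22). Nupr1 (-0.42) and Cebpd (-0.33) fell with lysate in wild type. In KO-labelled cells without lysate Jdp2 (-0.48), Atf6 (-0.31) and Cebpd (-0.34) were lower. Each of these calls was lost when at least 1 library was left out: untreated wild-type replicate 1 for Atf6 (adjusted p = 0.0579), untreated wild-type replicate 2 for Jdp2 (0.0974), and any 1 of at least 3 for the others (adjusted p up to 0.331). Cebpd had nearly the same values where it did not pass. These were -0.33 with lysate in KO-labelled cells (adjusted p = 0.0549) and -0.34 between genotypes with lysate (0.0543). Between genotypes with lysate Jdp2 was at -0.34 (0.0602) and Atf6 at -0.15 (0.193), and Nupr1 with lysate in KO-labelled cells at -0.21 (0.284). Atf3, induced by ATF4 in many cell types, passed in no comparison (values from -0.085 to 0.093 over the 4 pairs of groups).

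Of 13 aminoacyl-tRNA synthetase and tRNA export genes, which ATF4 often raises together, 1 was higher with lysate in wild type (Eprs, 0.24), 0 in KO-labelled cells, and between genotypes 0 without lysate and 1, lower, with lysate (Nars, -0.21). Both calls were lost when any 1 of 3 or more libraries was left out (adjusted p up to 0.115 and 0.302). The medians of this group lay between -0.056 and 0.045 over the 4 pairs of groups. Of all genes 21.5% and 15.2% passed with lysate in wild type and KO-labelled cells, in either direction. Between genotypes 16.2% passed without lysate and 12.9% with lysate. The 13 genes are few, and no more is drawn from their counts. Among feedback, secreted and autophagy targets Gdf15, a stress-induced cytokine, rose in both genotypes (0.58 ± 0.12, adjusted p = 0.00559, and 0.51 ± 0.12, adjusted p = 0.014), the latter lost without KO-labelled alone replicate 2 or either KO-labelled lysate library (adjusted p up to 0.153). Sesn3, a relative of Sesn2, was lower with lysate in wild type (-0.34), a call lost without any 1 of 5 libraries (adjusted p up to 0.306).

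**Figure D3:**
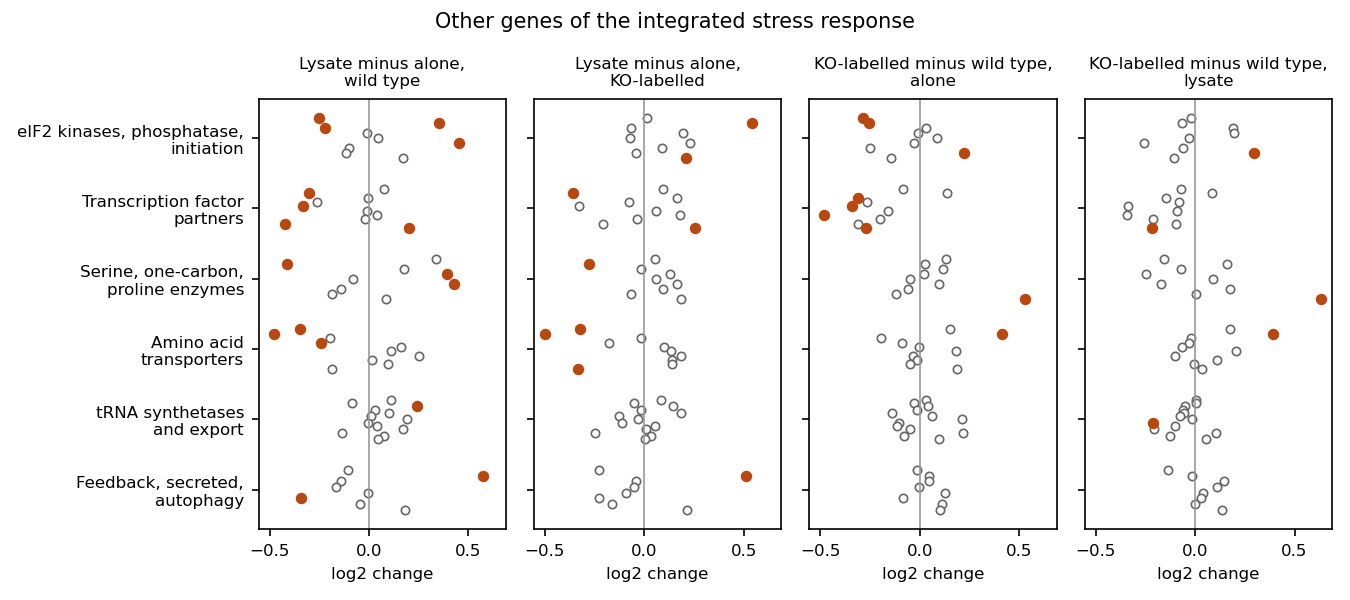
Log2 change (horizontal axis) of the 59 measured further genes of the response, 1 point each, by role (rows) and comparison (panels); filled points passed the threshold. Filled points lie on both sides of 0 in wild type with lysate (7 right and 10 left), and the tRNA synthetase row has 1 or 0 filled points in each panel.

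The genes whose values ran closest to the members that passed were found by the root mean square difference over the 8 libraries after each gene was centred on its own mean. Closest to Sesn2 were Mrtfa (0.034), an actin-regulated coactivator, Abtb2 (0.045) and Lrrk1 (0.048), and 117 genes lay within 0.1. Closest to Mthfd2 were Prr3 (0.030), Anks3 (0.038) and Cd83 (0.039), a surface protein of mature dendritic cells, with 493 genes within 0.1. For Psat1 they were Nicn1 (0.040), Trappc13 (0.047) and Snx5 (0.052) of 365 within 0.1, and for Ddit4 Vps33b (0.028), Slc39a14 (0.032) and Zbtb4 (0.035) of 938. The limit of 0.1 was not scaled to a gene's own range over the 8 libraries, 0.33 for Ddit4 and 0.86 for Sesn2. Genes that move little can therefore lie within 0.1 of Ddit4, and the counts do not measure how many genes share a pattern. No listed ATF4 gene was among the 3 closest to any of these members. Only 3 places per member were looked at among 11786 genes, so this does not show how the listed genes moved.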

How the data were processed

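The deposited table holds log2 values for 8 RNA-seq libraries, read as made by the authors from counts per Entrez gene with DESeq2's regularized logarithm. That reading rests on the table's name and on DESeq2 being listed, beside STAR, deepTools and mm9 and without versions, per the submitters' processing notes. Libraries were made with a stranded mRNA kit, per the labels' protocols. Counting tool, strand setting and gene filter: not given in the sources used here. Without counts, depth is unknown and no counting error is given. Low genes are pulled towards their mean.

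Identifiers were matched to RefSeq symbols (11744 of 11786). Genes with a largest group mean of at least 4 were tested (11785) with limma 3.58.1 in R 4.3.3, 1 fit of 4 group means with a mean-variance trend, two-sided, Benjamini-Hochberg adjusted, tested on simulated data. It had 4 residual and 9.33 prior degrees of freedom. Groups and replicate numbers came from sample titles. Figures used Python 3.11.15. Members and lists were chosen with earlier results of these data known. Named were all 9 members, up to 4 called genes per sublist and comparison, and the 3 nearest genes of each called member; Psph, Atf3, Slc7a11 and the marker genes given with values were chosen after values were seen. The alternatives tried were the replicate number as a block, a filter at 6 or none, median centring, quantile normalization, no variance trend, a fit of the groups compared, a threshold of 0.1 and leaving out each library, which leaves 1 group with a lone library whose spread is taken from the rest.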

Additional observations from a re-analysis of the deposited data

How the results depend on the processing

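Of the 9 genes, 3 passed with lysate in wild type, 1 with lysate in KO-labelled cells, 3 between genotypes without lysate and 2 with lysate, and 0 in the difference of the lysate effects. In KO-labelled cells with lysate 2 passed with a filter at 6, under quantile normalization or with no mean-variance trend (1718, 1785 and 1662 of all genes, beside 1792), and 4 at a threshold of 0.1 (2620 of all genes). Leaving out each library gave 1 to 3, 0 to 3, 2 to 3, 1 to 2 and 0 in the order above. The remaining settings kept each member count within 1.5 times. With the replicate number as a block the counts were 3, 1, 3, 2 and 0. Deviations of same-numbered libraries correlated between -0.61 and 0.26. These correlations, from 2 libraries a group, do not settle whether the numbers pair the libraries. With the numbers of KO-labelled alone exchanged, chosen after the data were seen, 4 passed with lysate in KO-labelled cells and the member counts of the other comparisons did not move, while calls over all genes rose to 3749, 2919, 2750, 2638 and 54. Over all genes, leaving out a library gave 1031 to 3152 calls (2534 with all), 564 to 2275 (1792), 1174 to 1865 (1915), 193 to 2057 (1519) and 0 to 32 (13). A fit of the groups compared gave 1196 for genotypes without lysate, and the difference of the lysate effects had 1 with the block or with no trend, 8 with a filter at 6 and 21 at a threshold of 0.1, where genotypes with lysate had 2427.

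No called value changed sign. Uncalled values that did were Trib3 between genotypes with lysate (-0.021) and Ddit4 with lysate in KO-labelled cells (-0.0054), both under quantile normalization, and the following ranges without 1 library. With lysate in wild type these were Asns -0.25 to 0.036 and Shmt2 -0.024 to 0.13. In KO-labelled cells they were Asns -0.071 to 0.22, Ddit3 -0.26 to 0.029 and Ddit4 -0.018 to 0.042. Between genotypes without lysate they were Ddit3 -0.19 to 0.093 and Psat1 -0.11 to 0.12, and with lysate Asns -0.17 to 0.12, Ddit3 -0.0087 to 0.081, Psat1 -0.14 to 0.0019, Shmt2 -0.13 to 0.017 and Trib3 -0.033 to 0.049. For the difference of the lysate effects they were Atf4 -0.017 to 0.052, Ddit3 -0.056 to 0.23, Mthfd2 -0.010 to 0.075 and Psat1 -0.19 to 0.041. The causes were not tested.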
